A study of Schizosaccharomyces pombe with 15 samples.

Results

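Of the 13003 transcription start-site clusters that the authors listed for fission yeast, 421 differed at least 4-fold in mean level between 2 growth media. They were chosen by a rule on CPM, each count divided by its library's total and scaled to 1000000 tags. The mean of the 3 libraries in EMM, a defined minimal medium, and the mean of the 3 libraries in YES, a rich medium made with yeast extract, had to differ at least 4-fold, with the higher mean at 1 CPM or more. By this rule 171 clusters were higher in EMM, 1.32% of all clusters, and 250 were higher in YES, 1.92%. Since the difference between EMM and YES chose these clusters, its size is given below as a description and carries no test. Non-overlap of the EMM and YES libraries is likewise only a description. It was found in 420 of the 421 clusters and in 31.7% of all 13003.

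All libraries came from wild-type Schizosaccharomyces pombe, strain h-S 972, grown in liquid culture at 30 °C. They were profiled by CAGE, in which tags are read from the capped 5′ ends of RNAs and are here taken to mark start sites. There were 5 groups of 3 libraries. Nitrogen-starved cells had been moved from EMM2 into the same medium lacking ammonium chloride for 16 h, and EMM cells were growing in EMM with no stress. Heat cells spent 15 min at 39 °C, H2O2 cells spent 15 min with 0.5 mM H2O2, and YES cells grew in YES without a stress. For the heat and H2O2 cultures one label field names the medium YES and another YEL. Replicates were triplicate cultures of 1 strain, so the p-values measure only the spread between such cultures.

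Library totals ran from 9687729 to 21822930 tags, and 3 tags, taken as the lowest level that can be told from 0, corresponded to 0.137 to 0.310 CPM. This floor covers counting error only. The medium-dependent clusters held 9.82% to 10.2% of the tags in the nitrogen-starved libraries and 7.52% to 7.80% in the EMM libraries. They held 0.585% to 0.630% after heat, 0.600% to 0.659% after H2O2 and 0.498% to 0.608% in YES. Most of the tags that these clusters held in EMM came from the main cluster of thi2 alone, which took 5.48% to 6.29% of each EMM library. Messages of M cells, the mating type of an h- strain, also moved with starvation: 5 of 5 such genes passed the test as higher, and their summed level was 1542 to 16487 CPM in nitrogen-starved libraries against 24.6 to 30.7 CPM in EMM. The 2 P-cell genes summed to 10.9 to 12.1 CPM in starved libraries and 6.37 to 9.02 CPM in EMM, but in the test 0 of their main clusters were higher and 1 was lower. None of these 7 genes held a medium-dependent cluster, and their part in the results was not tested.

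A growing yeast cell makes the transporters and enzymes for nutrients that its medium lacks and represses those it does not need. In fission yeast the thiamine genes are repressed by external thiamine, the copper and iron uptake genes respond to metal supply, and the permeases for poorer nitrogen sources are held down while a good source is present. Promoters that respond strongly to nutrients often carry a TATA box, which places the start site a short and fixed distance downstream. A cluster can also be a second start site of a gene, so that a change of medium changes where the message begins as well as how much of it is made.

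The promoter sequences below are 12 examples picked from the 421 clusters. That of the strongest YES-higher cluster is not among them, and these sequences do not stand for all 421. Each is 101 bases long, is read on the strand of the cluster and ends at the cluster's most used start base, here called the peak. Sequences are from RefSeq, build ASM294v3. The authors' build was ASM294v2, per the submitters' processing notes, and as a check of the coordinates the RefSeq bases were read at each peak. A pyrimidine followed by a purine, common where transcription begins, was found at 85.1% of peaks, but at 3.92% and 3.63% with the peaks moved by 1 base to either side. Capitals mark TATAAA or TATATA (one run where they overlap), GATAAG in isp7, and the peak base at the end. From the EMM-higher clusters, nmt1 and thi2 make thiamine precursors, isp5 and put4 encode amino acid permeases and isp7 a 2-oxoglutarate oxygenase. Their windows are III:1838315-1838415 on the plus strand, II:3940423-3940523 (plus), I:5466657-5466757 (plus), I:5493064-5493164 (plus) and I:4183019-4183119 (minus), in that order.
nmt1: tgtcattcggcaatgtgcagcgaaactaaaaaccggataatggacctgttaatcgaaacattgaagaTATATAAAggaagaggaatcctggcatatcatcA
thi2: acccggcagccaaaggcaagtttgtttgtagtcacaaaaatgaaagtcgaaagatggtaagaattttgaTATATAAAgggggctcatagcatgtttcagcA
isp5: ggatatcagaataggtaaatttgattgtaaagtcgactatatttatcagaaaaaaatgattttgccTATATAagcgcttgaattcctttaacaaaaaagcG
put4: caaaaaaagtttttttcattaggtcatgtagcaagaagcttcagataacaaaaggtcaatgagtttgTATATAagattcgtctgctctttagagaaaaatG
isp7: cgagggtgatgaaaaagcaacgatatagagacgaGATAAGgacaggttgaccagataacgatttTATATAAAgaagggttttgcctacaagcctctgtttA
In sod1, which encodes the copper- and zinc-containing superoxide dismutase, and in ctr4, a subunit of the high-affinity copper transporter, one cluster was higher in EMM and another in YES. The proximal sod1 window, at I:1003600-1003700 (minus), and the distal ctr4 window, at III:817585-817685 (plus), belong to EMM-higher clusters. The distal sod1 window, at I:1004624-1004724 (minus), and the proximal ctr4 window, at III:817851-817951 (plus), belong to YES-higher clusters. Proximal is used in ctr4 for its strong middle cluster, since a weaker YES-higher cluster lay nearer the mRNA 5′ end.
sod1 proximal: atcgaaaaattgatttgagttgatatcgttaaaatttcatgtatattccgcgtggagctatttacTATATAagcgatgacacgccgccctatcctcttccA
sod1 distal: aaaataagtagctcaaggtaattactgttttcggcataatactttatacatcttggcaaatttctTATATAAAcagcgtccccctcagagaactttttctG
ctr4 distal: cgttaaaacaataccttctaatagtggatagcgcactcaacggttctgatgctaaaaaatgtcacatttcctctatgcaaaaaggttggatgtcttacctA
ctr4 proximal: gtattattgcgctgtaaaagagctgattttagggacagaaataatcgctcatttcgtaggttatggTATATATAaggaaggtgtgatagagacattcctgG
The remaining YES-higher windows are those of ctr5, the partner subunit of ctr4, at I:3635309-3635409 (plus), of str3, annotated as a siderophore transporter, at I:90289-90389 (minus), and of alr2, annotated as an alanine racemase, at II:107534-107634 (plus).
ctr5: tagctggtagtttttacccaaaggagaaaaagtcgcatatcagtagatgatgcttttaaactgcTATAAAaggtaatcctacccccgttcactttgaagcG
str3: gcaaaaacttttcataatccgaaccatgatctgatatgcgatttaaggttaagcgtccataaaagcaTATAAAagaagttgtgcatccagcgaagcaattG
alr2: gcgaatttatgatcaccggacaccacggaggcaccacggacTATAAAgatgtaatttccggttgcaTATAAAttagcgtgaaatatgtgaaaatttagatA
In 11 of these 12 windows a TATA run began 31 to 36 bases before the peak. The distal ctr4 window had none of the searched letters, and alr2 had a second TATAAA 59 bases before its peak.

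The same letters were then counted over all clusters. TATAAA or TATATA, searched on the sense strand in the 60 bases before the peak, occurred in 53 of 171 EMM-higher clusters (31.0%), 40 of 250 YES-higher clusters (16.0%) and 1501 of all 13003 clusters (11.5%). TATATA was added to the search after the promoter windows had been read. Among clusters at an annotated mRNA 5′ end, that is with a peak within 100 bp of it, the shares were 62.5% of 48 EMM-higher clusters, 54.5% of 22 YES-higher clusters and 14.4% of all 4649. At other peaks they were 18.7% of 123 EMM-higher clusters, 12.3% of 228 YES-higher clusters and 9.96% of all 8354. The first letter lay 25 to 40 bases before the peak in 94.3% of the EMM-higher clusters that held a run, 82.5% of the YES-higher ones and 76.7% of all clusters that held one. Where a cluster held several matches, the one closest to the middle of this range was taken, which favours the range. Because TATATA was added after windows of these clusters had been read, the shares with TATAAA alone are also given. TATAAA alone occurred in 18.7% of EMM-higher, 7.6% of YES-higher and 6.22% of all clusters. At mRNA 5′ ends it occurred in 39.6%, 22.7% and 6.88% in the same order. GATAAG, the letters at the core of GATA-type sites, was searched on both strands in the 200 bases before the peak. It was found in 19.3% of EMM-higher, 8.4% of YES-higher and 9.71% of all clusters, and at mRNA 5′ ends in 29.2% of EMM-higher clusters, 13.6% of YES-higher clusters, which is 3 of 22, and 8.56% of all clusters. Another 3 motifs were searched in the same way. CCAAT occurred in 32.2% of EMM-higher, 34.8% of YES-higher and 33.0% of all clusters, and at mRNA 5′ ends in 29.2%, 40.9% and 28.8% in the same order. GCTGA occurred in 21.6% of EMM-higher, 20.8% of YES-higher and 23.9% of all clusters, and at mRNA 5′ ends in 18.75%, 31.8% and 20.6%. TGACGT occurred in 4.09% of EMM-higher, 4% of YES-higher and 4.81% of all clusters, and at mRNA 5′ ends in 2.08%, 9.09% and 5.18%. A match to such short letters is a description of the window and not a mapped site.

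The 2 directions differed in what the annotation shows at the peak. Of the EMM-higher clusters, 28.1% lay at an mRNA 5′ end, as did 8.80% of the YES-higher clusters and 35.8% of all clusters. Peaks in noncoding genes or pseudogenes made up 28.7% of the EMM-higher clusters, 45.6% of the YES-higher clusters and 19.4% of all. By the authors' gene assignment, 15.8% of EMM-higher clusters, 36.4% of YES-higher clusters and 12% of all clusters belonged to a long noncoding RNA gene. Many clusters were weak: 39.2% of EMM-higher, 51.6% of YES-higher and 51.8% of all clusters had a higher mean under 3 CPM. With only those at 10 CPM or more, 63.6% of 66 EMM-higher and 23.8% of 42 YES-higher clusters lay at mRNA 5′ ends. Of the 4267 clusters of that strength, 86.7% did. Peaks in noncoding genes or pseudogenes made up 15.2%, 40.5% and 3.98% of these sets in the same order. Within 100 kb of a chromosome end lay 11.2% of YES-higher, 8.77% of EMM-higher and 2.65% of all clusters. Of the 22 YES-higher clusters at mRNA 5′ ends, 9 lay there (40.9%), as did 6 of 48 EMM-higher clusters. Of all clusters at such 5′ ends, 2.28% did. These shares were not tested.

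**Figure D1:**
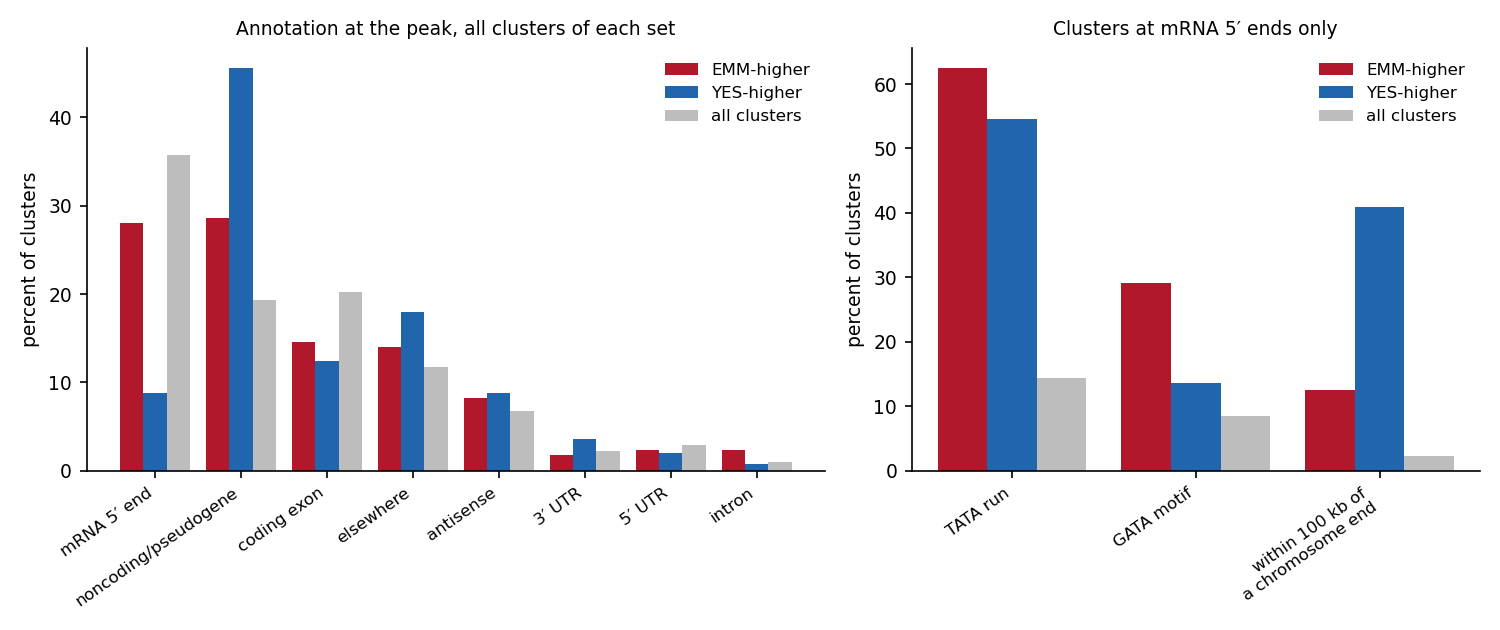
Share of clusters, in percent, with a given annotation at the peak (left, all clusters of each set) and with a motif or position (right, clusters at mRNA 5′ ends only); red bars are EMM-higher, blue bars YES-higher and grey bars all clusters, numbering 171, 250 and 13003 on the left and 48, 22 and 4649 on the right. At mRNA 5′ ends a TATA run, TATAAA or TATATA, stood before 62.5% of EMM-higher and 54.5% of YES-higher clusters, against 14.4% of all. TATAAA alone stood before 39.6%, 22.7% and 6.88% in the same order.

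By level in EMM, the strongest EMM-higher clusters were those of the thiamine genes thi2 and nmt1. Of 8 genes on the thiamine list, which includes the vitamin B6 importer bsu1, 6 held a medium-dependent cluster. Of these clusters 6 were EMM-higher and 1 was YES-higher. The main cluster of nmt1 (III:1838165-1839524), whose name stands for no message in thiamine, had 1043, 627 and 1801 CPM in nitrogen-starved libraries, 10416, 2802 and 4847 CPM in EMM, 1.72, 3.11 and 2.29 CPM after heat, 2.29, 2.11 and 2.0 CPM after H2O2 and 26.5, 1.58 and 1.64 CPM in YES. The main cluster of thi2 (II:3939918-3941275) had 66171, 66058 and 60485 CPM in starved libraries, 54844, 62767 and 62925 CPM in EMM, 30.2, 40.3 and 48.7 CPM after heat, 20.5, 21.1 and 26.5 CPM after H2O2 and 161, 66.8 and 24 CPM in YES. For both genes the EMM libraries lay far above every library from YES, but YES library 1 stood apart from the other two. The ratio of the EMM mean to the YES mean was 607 for nmt1 and 716 for thi2, and without YES library 1 it was 3737 and 1326. Without EMM library 1, the highest of its group for nmt1, the nmt1 ratio was 386.

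Other vitamin genes differed less between the media than nmt1 and thi2. The vitamin B6 importer bsu1 had a mean of 246 CPM in EMM and 3.67 CPM in YES. The thiamine transporter thi9 had 188 CPM in EMM and 33.9 CPM in YES, and thi4, which joins the precursors of thiamine, had 678 and 127 CPM. The cluster of SPBC530.07c (II:804717-805545), annotated as a TENA/THI family protein and chosen for its level after its values were seen, had 251, 288 and 195 CPM in nitrogen-starved libraries, 1386, 1713 and 1592 CPM in EMM, 43.8, 47.1 and 46.5 CPM after heat, 47, 37.5 and 52.3 CPM after H2O2 and 50.4, 45.5 and 47.9 CPM in YES. In bsu1, thi9, thi4 and SPBC530.07c the EMM and YES libraries did not overlap, as in 420 of the 421 medium-dependent clusters. The acid phosphatase pho1, with 677, 571 and 655 CPM in EMM and 98.6, 157 and 214 CPM in YES, lay just inside the 4-fold limit at 4.05-fold.

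Transport and use of nitrogen compounds formed a further group. Of 9 permease genes on the list, 5 held 6 medium-dependent clusters, all EMM-higher. The amino acid permease isp5 (I:5466506-5468318) had 3091, 2833 and 2211 CPM in nitrogen-starved libraries, 211, 214 and 232 CPM in EMM, 1.63, 2.38 and 2.35 CPM after heat, 2.7, 3.25 and 2.14 CPM after H2O2 and 4.03, 4.57 and 2.17 CPM in YES. Its levels therefore came in 3 tiers, starved over EMM over all libraries from YES, with no overlap between tiers. The peptide transporter isp4 (II:1550642-1553865) kept that order, with 4913, 5248 and 6889 CPM in starved libraries, 130.2, 174 and 133 CPM in EMM and 6.3, 8.88 and 6.24 CPM in YES. The permease put4 had 496 CPM in EMM against 36.2 CPM in YES, and the ammonium transporter amt1 had 407 against 44.5 CPM. The cluster of SPBC23G7.13c, annotated as a urea transporter, had 58.7, 69.8 and 72.1 CPM in EMM and 0.516, 0.352 and 0.688 CPM in YES. The EMM and YES libraries of these genes did not overlap.

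One divergent pair was higher in EMM on both strands. SPAC11D3.18c, annotated as a carboxylic acid transporter, and dgc1, annotated as a D-glutamate cyclase, start back to back on chromosome I. The dgc1 cluster (I:146816-146917) had 31.1, 28 and 32.4 CPM in nitrogen-starved libraries and 93.5, 49.6 and 74.1 CPM in EMM. It had 0 CPM in the 3 heat libraries, and 0, 0.0458 and 0.0465 CPM after H2O2 and 0.103, 0 and 0.0529 CPM in YES, values of at most 1 tag a library. The SPAC11D3.18c cluster (I:146143-146787) had 204, 235 and 225 CPM in starved libraries, 342, 235 and 277 CPM in EMM, 4.64, 4.7 and 4.81 CPM after heat, 5.13, 6.55 and 6.56 CPM after H2O2 and 5.78, 4.4 and 6.51 CPM in YES. The libraries from EMM and those from YES did not overlap for either gene.

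**Figure D2:**
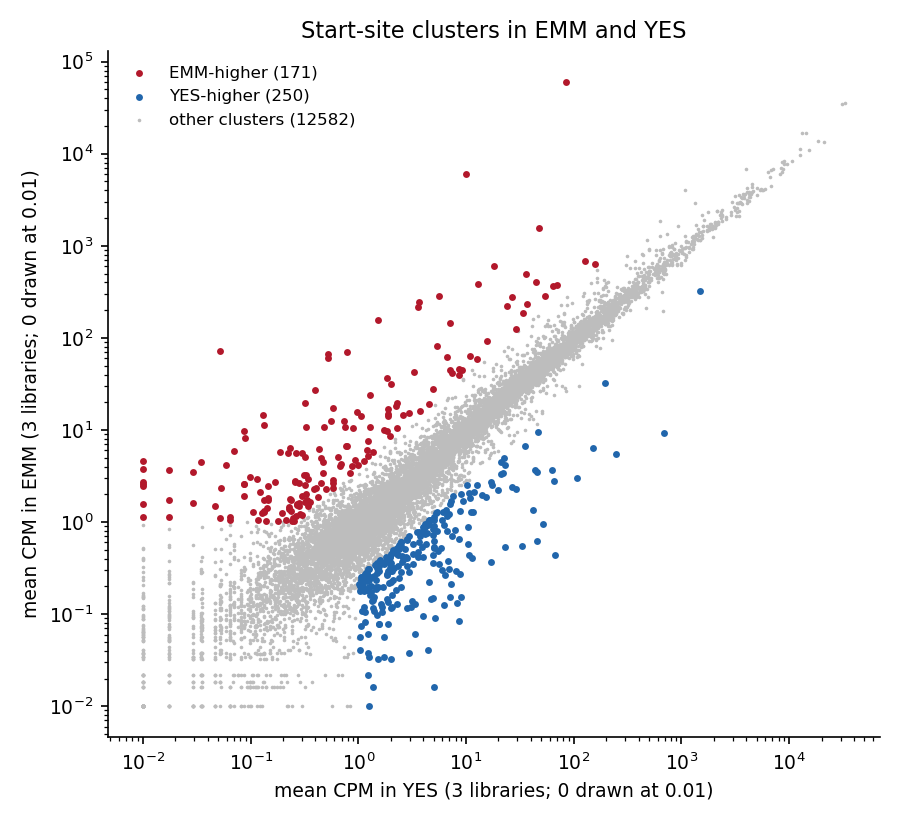
Mean CPM in YES (horizontal) and in EMM (vertical) of all 13003 clusters, both on log axes with 0 drawn at 0.01; each point is a cluster, with the 171 EMM-higher in red, the 250 YES-higher in blue and the other 12582 in grey. The red point highest on the plot is thi2, with 60179 CPM in EMM and 84.0 CPM in YES.

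By level in YES, the strongest YES-higher cluster was the main cluster of car2 (II:3809715-3810959), which encodes ornithine transaminase of arginine breakdown. Chosen for its level after its values were seen, it had 131, 131 and 95.7 CPM in nitrogen-starved libraries, 311, 328 and 342 CPM in EMM, 802, 914 and 825 CPM after heat, 1181, 1222 and 1452 CPM after H2O2 and 1347, 1371 and 1719.7 CPM in YES. Every library from YES lay above every library from EMM-based medium. The next strongest was ctr4, and both subunits of the copper transporter were higher in YES. The proximal ctr4 cluster (III:817799-818121) had 7.16, 25.2 and 5.22 CPM in nitrogen-starved libraries, 13.3, 7.59 and 6.66 CPM in EMM, 626, 365 and 345 CPM after heat, 381, 358 and 335 CPM after H2O2 and 513, 866 and 704 CPM in YES. Its partner ctr5 (I:3635300-3635461) had 12.9, 12.6 and 11 CPM in starved libraries, 8.15, 5.56 and 5.55 CPM in EMM, 88.1, 103 and 84.2 CPM after heat, 135, 148 and 129 CPM after H2O2 and 116, 143 and 190.1 CPM in YES. In both, every library from YES lay above every library from EMM-based medium. The other 3 copper genes on the list, ctr6, cuf1 and ccs1, held no medium-dependent cluster.

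Of 12 iron genes measured, 2 had a YES-higher main cluster. For str3 (I:90253-90485) the values were 0.662, 0.165 and 0.29 CPM in EMM and 15.1, 13.7 and 22.5 CPM in YES. The ferric reductase gene frp1 (II:162342-162394) had 0.729, 1.32 and 1.45 CPM in EMM and 6.4, 7.82 and 5.71 CPM in YES. The cluster that starts back to back with frp1 on the other strand (II:162567-162832), which the authors assigned to no gene, was stronger, with 0.994, 0.44 and 0.434 CPM in EMM and 39, 45.5 and 53 CPM in YES. The second cluster of the iron importer gene pcl1 was EMM-higher, with 13, 14.7 and 18 CPM in EMM and 3.2, 2.37 and 3.28 CPM in YES, and its main cluster was not medium-dependent. The alr2 cluster (II:107548-107993) had 0.0504, 1.1 and 0 CPM in starved libraries, 0.662, 0.275 and 0.386 CPM in EMM, 32.4, 32 and 28.8 CPM after heat, 113, 110.0 and 129.6 CPM after H2O2 and 58.8, 66.1 and 74.3 CPM in YES, again with no overlap between the media.

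Lists of other nutrient pathways held few medium-dependent clusters. Of 36 amino acid synthesis genes, 1 held one, a weak cluster inside the coding exon of lys4, which encodes a homocitrate synthase of lysine synthesis, with 0.199, 0.33 and 0.29 CPM in EMM and 1.65, 1.06 and 0.899 CPM in YES. The 15 genes of purine and pyrimidine synthesis, 6 zinc genes, 6 hexose transporters and 9 core stress genes held 0. Of 15 mating and nitrogen genes, mei2, isp7 and amt1 held 5, all EMM-higher.

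In several genes the medium went with a different start site. Of the 171 medium-dependent clusters that were not their gene's strongest cluster, 93 accounted for 10% or more of their gene's tags in the medium where they were higher. In 53 of these the gene's total level differed by less than 2-fold between EMM and YES, and 36 of the 53 lay in coding genes. Along each strand, 11 pairs of successive medium-dependent clusters within 2 kb joined an EMM-higher and a YES-higher one. Clusters that were not medium-dependent could lie between, as in thi2. In 9 of the 11 pairs the YES-higher cluster lay upstream, and 8 pairs lay within 1 gene.

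One such pair was in sod1. The proximal cluster (I:1003304-1003658), at the annotated mRNA 5′ end, had 739, 584 and 819 CPM in nitrogen-starved libraries, 805, 416 and 584 CPM in EMM, 52.2, 65.7 and 55.1 CPM after heat, 55.5, 47.5 and 35 CPM after H2O2 and 20.6, 16.1 and 18.3 CPM in YES. The distal cluster (I:1003679-1004775), whose peak lay 1024 bp upstream, had 7.67, 15.6 and 9.43 CPM in starved libraries, 9.01, 4.07 and 3.19 CPM in EMM, 198, 251 and 109 CPM after heat, 249, 214 and 119.5 CPM after H2O2 and 163, 275 and 304 CPM in YES. The distal cluster thus held 1.03% to 2.6% of sod1 tags in starved libraries, 0.543% to 1.11% in EMM, 66.4% to 79.3% after heat, 77.3% to 81.9% after H2O2 and 88.7% to 94.5% in YES. Both promoters carry a TATA run beginning 35 bases before their peak.

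In ctr4 the order was the other way round, with the EMM-higher cluster upstream. The distal ctr4 cluster (III:817665-817756) had 5.15, 5.26 and 4.92 CPM in nitrogen-starved libraries, 1.39, 1.93 and 1.45 CPM in EMM, 0, 0 and 0.056 CPM after heat and 0 in every H2O2 and YES library. Against a floor of 3 counts in each YES library, it was at least 6.51-fold higher in EMM. It held 16.8% to 47.5% of ctr4 tags in starved libraries and 8.71% to 18% in EMM, while the gene as a whole was low in both. The third ctr4 cluster (III:818145-818966), whose peak lay 191 bp from the mRNA 5′ end, was also YES-higher. Its means were 1.32 CPM in EMM and 8.74 CPM in YES. The peak of the proximal cluster lay 508 bp from that end.

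In the centromere protein gene cnp3 and in SPBC3B8.06, an uncharacterised gene, one of the start sites was YES-higher. The distal cnp3 cluster (II:4129109-4129352), with its peak 502 bp upstream of that at the mRNA 5′ end, had 0.303, 1.61 and 0.862 CPM in nitrogen-starved libraries, 1.32, 0.77 and 0.772 CPM in EMM, 19.8, 21.4 and 19.3 CPM after heat, 21.1, 20.7 and 17.5 CPM after H2O2 and 46.9, 52.7 and 56.3 CPM in YES. The cluster at the cnp3 5′ end had means of 28.1, 13.7, 11.6, 11.7 and 8.83 CPM in the same order of groups. The distal site held 5.05% to 9.35% of cnp3 tags in EMM and 84.6% to 86.6% in YES. In SPBC3B8.06 the YES-higher cluster lay in an intron (II:3385118-3385404) and held 3.92% to 5.25% of the gene's tags in starved libraries, 1.48% to 2.91% in EMM, 46.3% to 50.4% after heat, 40.3% to 45.2% after H2O2 and 43.5% to 50.1% in YES.

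In SPAC644.09, annotated as a pyridoxal phosphate homeostasis protein, and in pac1, which encodes a double-strand-specific ribonuclease, one of the start sites was EMM-higher. The SPAC644.09 intron cluster (I:2689763-2690088) had 34.4, 51.3 and 35.5 CPM in nitrogen-starved libraries, 66.5, 72.8 and 72.5 CPM in EMM, 0.687, 0.671 and 0.336 CPM after heat, 0.763, 0.779 and 1.02 CPM after H2O2 and 0.826, 0.703 and 0.847 CPM in YES. It held 38.5% to 48.6% of the gene's tags in starved libraries, 71.4% to 74.5% in EMM and 1.31% to 1.94% in YES. The pac1 cluster at the mRNA 5′ end (II:738447-739044) had 49, 38.4 and 47.5 CPM in starved libraries, 153, 164 and 156 CPM in EMM and 1.96, 1.14 and 1.43 CPM in YES. The distal pac1 cluster, with its peak 849 bp upstream, had means of 6.27, 9.57 and 11.3 CPM in the same order and was not medium-dependent.

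**Figure D3:**
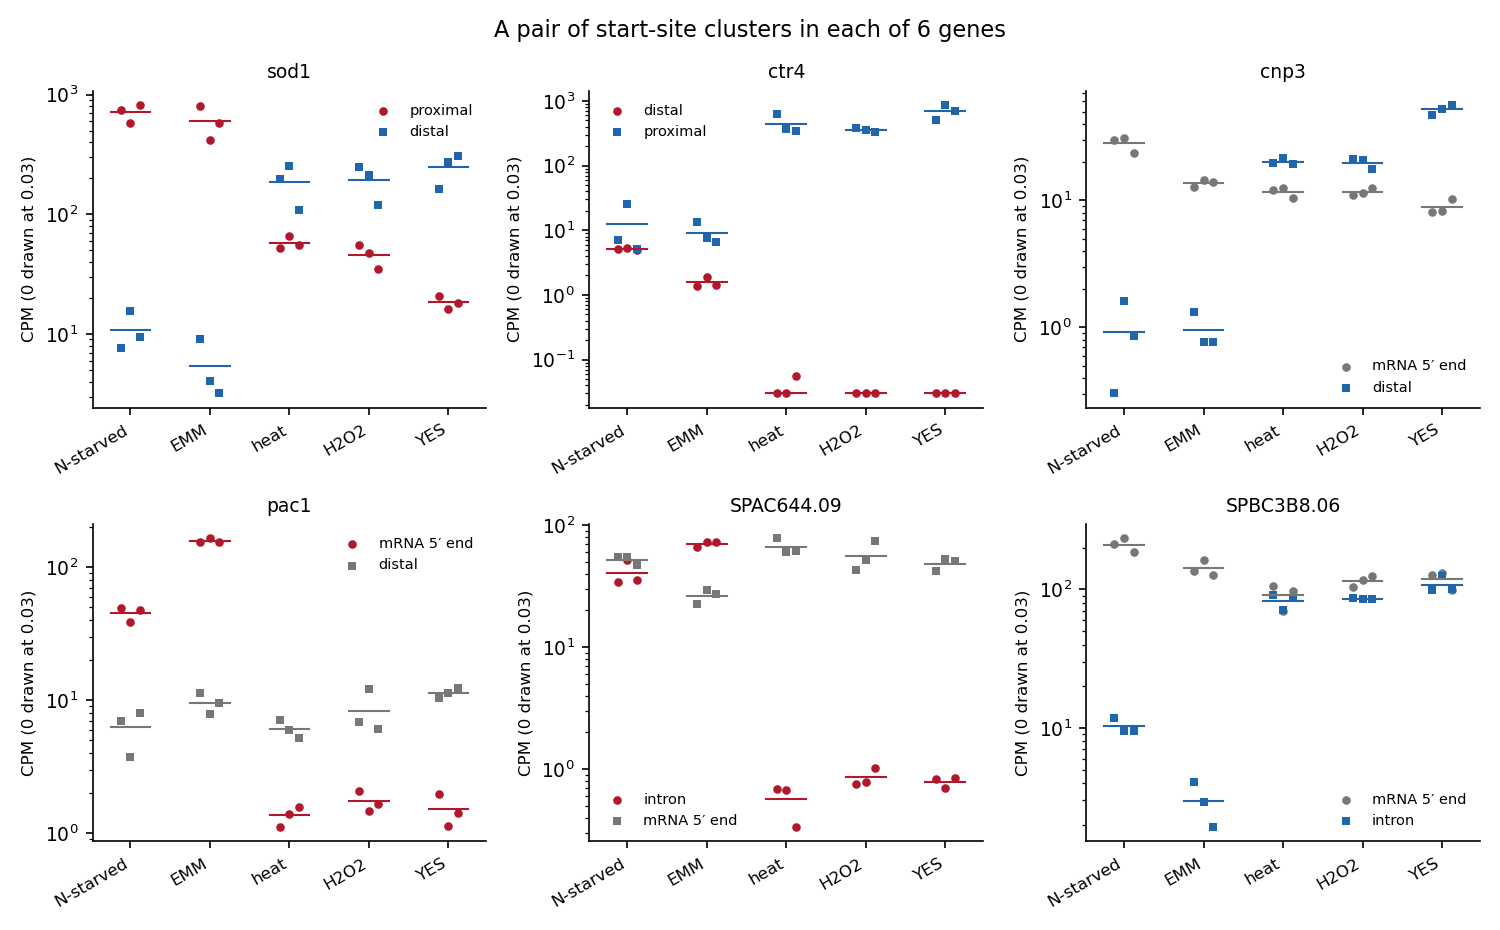
CPM of a pair of start-site clusters in each of 6 genes, by group; each point is a library, lines are means of 3 libraries, and the axes are logarithmic with 0 drawn at 0.03. Red marks EMM-higher, blue YES-higher and grey clusters that are not medium-dependent. The 2 sod1 clusters stand in opposite order in the libraries from EMM and in those from YES. In ctr4 the cluster labelled proximal is the gene's middle cluster.

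Medium-dependent clusters often lay beside one another. Another one lay within 1 kb of 47.4% of EMM-higher and 45.6% of YES-higher clusters, against 7.67% of all clusters. In the authors' list, 172 were in runs of at least 2 neighbours and 58 in 17 runs of at least 3. One dense stretch was on chromosome I, where 8 YES-higher clusters of the noncoding RNA genes SPNCRNA.779 to SPNCRNA.784 lay between positions 1953794 and 1957027. The strongest of the 8, in SPNCRNA.782 (I:1956028-1956433), had 13.2, 15.2 and 15.8 CPM in nitrogen-starved libraries, 3.71, 1.87 and 2.85 CPM in EMM, 40.1, 51.9 and 35.1 CPM after heat, 78.8, 82.8 and 58.3 CPM after H2O2 and 61.8, 64.4 and 70.2 CPM in YES. Other runs held a coding cluster with weaker clusters on the opposite strand, as at nmt1, thi2, pac1 and osh6, an oxysterol-binding protein gene. Next to nmt1, clusters antisense to hel2, which encodes a ubiquitin ligase, included one (III:1836635-1837099) with 0.252, 0.146 and 0.355 CPM in starved libraries, 28.8, 27.5 and 25.1 CPM in EMM and 0.413, 0.352 and 0.423 CPM in YES. In total, 53.8% of EMM-higher clusters overlapped a cluster on the opposite strand, as did 32.8% of YES-higher clusters and 28.9% of all. These shares take no account of cluster width. Median widths were 196, 165 and 181 bp in the same order, and 471, 301 and 233 bp at 10 CPM or more. An overlapping opposite-strand cluster at least 10 times as strong was found for 38 of the 421 medium-dependent clusters (9.03%). That is near the 7.18% of all clusters. In 15 of the 38 the stronger cluster was medium-dependent in the same direction.

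Whether the medium difference also held in cultures that had not chosen the clusters was asked by comparing nitrogen-starved libraries with the mean of the heat and H2O2 libraries. The levels compared come from none of the 6 libraries of the rule, although those libraries shared in the estimate of the spread, and medium and stress cannot be told apart in this contrast. Of the 171 EMM-higher clusters, 139 were higher in starved libraries, where 40.4% of all clusters were, and 15 were lower, where 37.8% of all were (edgeR quasi-likelihood test, Benjamini-Hochberg adjusted p under 0.05). Of the 250 YES-higher clusters, 16 were higher and 210 lower. With only the starved, heat and H2O2 libraries in the fit, 124 EMM-higher clusters were higher and 11 lower, and 17 YES-higher clusters were higher and 207 lower. The median log2 change was 3.41 for EMM-higher clusters, -2.93 for YES-higher clusters and 0.03 for all clusters. At 10 CPM or more the counts were 58 of 66 EMM-higher clusters higher and 4 lower, and 0 of 42 YES-higher clusters higher and 41 lower. The 3 stresses differ in length, and in bulk RNA a change in every cell and a change in a fraction of the cells cannot be told apart.

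The log2 changes of the leading genes in that contrast came from the same fit. For thi2 the change was 10.60 (SE 0.52, adjusted p = 3.3e-10), for isp5 it was 9.67 (SE 0.23, adjusted p = 1.3e-16), and for put4 it was 5.76 (SE 0.20, adjusted p = 1.8e-14). The proximal sod1 cluster changed by 3.33 (SE 0.19, adjusted p = 2.6e-11) and the distal one by -4.59 (SE 0.45, adjusted p = 5.1e-07), so the 2 sites moved in opposite directions. The intron site of SPAC644.09 changed by 5.40 (SE 0.18, adjusted p = 9.0e-15), the pac1 5′ end by 4.40 (SE 0.16, adjusted p = 3.1e-14), the intron site of SPBC3B8.06 by -3.49 (SE 0.20, adjusted p = 2.2e-11) and ctr5 by -3.66 (SE 0.17, adjusted p = 2.1e-12).

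Starved library 2 weighed on 3 YES-higher clusters in that contrast, since its values were the highest of the 3 in each. The change was -5.46 (SE 0.54, adjusted p = 6.4e-07) for the proximal ctr4 cluster and -6.48 without that library. It was -8.01 (SE 0.53, adjusted p = 4.9e-09) for alr2, whose starved libraries held at most 1.10 CPM, -11.2 without library 2 and -7.36 without library 3. Starved libraries 1 and 3 held fewer than 3 tags of alr2, so the size of its change is uncertain. For the distal cnp3 cluster the change was -4.97 (SE 0.30, adjusted p = 8.7e-11), and -5.55 without library 2. All of these passed the test in every case.

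Some clusters went against their medium in the stresses. Of the 4 EMM-higher clusters at 10 CPM or more that were lower in starvation than in heat and H2O2, pho1 changed by -0.93 (SE 0.25, adjusted p = 0.0033), and its starved libraries held 59.3, 27.4 and 65.1 CPM. With library totals alone its change was -0.46 with an adjusted p of 0.13. The SPAC27D7.11c cluster (I:4529955-4531671) had 21.6, 24.9 and 22.6 CPM in starved libraries, 321, 219 and 388 CPM after heat and 42.1, 42.8 and 43.4 CPM after H2O2, a change of -2.79 (SE 0.20, adjusted p = 5.5e-10). The other 2 were the osh6 cluster, at -1.28 (SE 0.14, adjusted p = 2.1e-07), and a cluster that the authors put in no gene (I:3956431-3956615), at -3.40 (SE 0.46, adjusted p = 2.2e-06), with -2.78 without starved library 1 and -4.20 without library 2. The starved libraries held at most 3 tags of this last cluster, so the size of its change is uncertain. On the other side, SPNCRNA.622 (I:206775-207066), a noncoding RNA antisense to the stress kinase gene sty1, was YES-higher but was highest in starvation, with 47.8, 38.2 and 48.2 CPM there, 1.46, 1.65 and 1.12 CPM after heat and 0.485, 0.687 and 0.698 CPM after H2O2. Its change was 5.10 (SE 0.18, adjusted p = 2.7e-14).

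**Figure D4:**
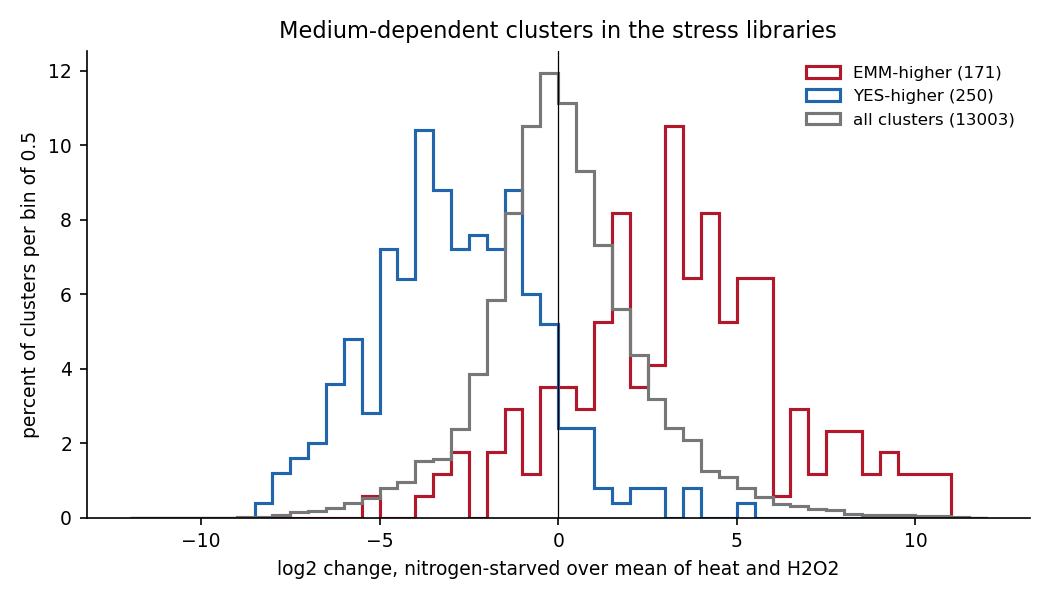
Distribution of the log2 change between nitrogen-starved libraries and the mean of the heat and H2O2 libraries, as the percent of clusters in bins of 0.5, for the 171 EMM-higher (red), 250 YES-higher (blue) and all 13003 clusters (grey). The medians were 3.41, -2.93 and 0.03, and both coloured distributions have tails across 0.

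Starvation itself moved these clusters in both directions. Against EMM, 142 of 421 were higher in nitrogen-starved libraries, where 36.5% of all clusters were, and 146 were lower, where 30.3% of all were. The members' shares were 33.7% higher and 34.7% lower, the first a little below and the second a little above those of all clusters. Scaled by library totals alone, the counts were 170 higher and 118 lower, so the balance between the directions turned. The EMM libraries served both the rule and this contrast. By direction, 58 EMM-higher clusters were higher and 85 lower in starvation, and 84 YES-higher clusters were higher and 61 lower, the last count being 32 when only the starved and EMM libraries were fitted.

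The permease genes isp5, isp4 and put4 rose in starvation, and the vitamin genes thi4 and bsu1 fell. Log2 changes against EMM were 4.80 (SE 0.21, adjusted p = 2.5e-12) for isp4, 3.15 (SE 0.23, adjusted p = 1.5e-09) for isp5, 3.76 (SE 0.35, adjusted p = 2.9e-07) for isp7, 2.40 (SE 0.17, adjusted p = 9.0e-10) for SPBC23G7.13c and 1.91 (SE 0.22, adjusted p = 6.5e-07) for put4. On the thiamine list 1 main cluster of 8 rose and 4 fell, among them thi4 at -2.34 (SE 0.18, adjusted p = 4.6e-09) and bsu1 at -3.40 (SE 0.37, adjusted p = 1.7e-06). For nmt1 the change was -2.87 (SE 0.90, adjusted p = 0.015), and without EMM library 1, which was the highest, it was -2.20 with an adjusted p of 0.058. The acid phosphatase pho1 fell by 4.13 on the log2 scale (SE 0.31, adjusted p = 1.7e-08).

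Large changes against EMM were also found in clusters that were weak in both media. SPCC569.09 (III:2413872-2414027), an uncharacterised gene, had 83.6, 93.6 and 108 CPM in nitrogen-starved libraries and 0.331, 0.33 and 0.29 CPM in EMM, a log2 change of 7.72 (SE 0.29, adjusted p = 3.0e-13). The melibiase gene mel1 (I:5499719-5499784) had 28, 26.2 and 22.9 CPM in starved libraries and 0.331, 0.165 and 0.0965 CPM in EMM, a change of 6.57 (SE 0.34, adjusted p = 2.6e-11). SPNCRNA.622 changed by 6.42 (SE 0.27, adjusted p = 1.2e-12). SPNCRNA.1443 (II:1555744-1555873) had 46.8, 61.8 and 495 CPM in starved libraries and 1.46, 0.88 and 1.06 CPM in EMM, with a change of 6.98 (SE 0.96, adjusted p = 5.4e-05), or 5.13 without starved library 3. Among clusters at 10 CPM or more in EMM, the one antisense to hel2 changed by -7.14 (SE 0.27, adjusted p = 3.4e-13). The unassigned cluster at I:3956431-3956615 had 0, 0.219 and 0.101 CPM in starved libraries against 10.0, 11.6 and 9.99 CPM in EMM, a change of -7.14 (SE 0.39, adjusted p = 4.9e-11), with -6.53 without starved library 1 and -7.95 without library 2. Its starved values lay at or under the floor of 3 tags, so the size of this change is uncertain.

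The short stresses moved fewer of these clusters, as they did of all clusters. After heat, 68 of 421 were higher than in YES, where 18.2% of all clusters were, and 85 were lower, where 15.4% of all were. As shares of the 421 these were 16.2% and 20.2%, the first below and the second above those of all clusters. Scaled by library totals alone, the counts were 60 higher and 113 lower. The 2 directions differed. Of the EMM-higher clusters 18 were higher after heat (10.5%) and 20 lower (11.7%), both below the shares of all clusters. Of the YES-higher clusters 50 were higher (20%) and 65 lower (26%), both above them. After H2O2, 53 of the 421 were higher, where 9.43% of all clusters were, and 27 lower, where 5.95% of all were. As shares of the 421 the H2O2 counts were 12.6%, above that of all clusters, and 6.41%, near it. Of the EMM-higher clusters 17 were higher after H2O2 (9.94%) and 7 lower (4.09%). Of the YES-higher clusters 36 were higher (14.4%) and 20 lower (8%). The YES libraries served both the rule and these contrasts.

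Among the largest heat changes were noncoding RNAs that were YES-higher. SPNCRNA.1289 (III:2331285-2331502) had 149, 160.0 and 171 CPM after heat and 5.26, 2.9 and 4.44 CPM in YES, and its log2 change was 5.42 (SE 0.24, adjusted p = 7.0e-12). SPNCRNA.1527 (II:2552916-2553467) had 146, 133 and 183 CPM after heat and 8.05, 8.09 and 7.78 CPM in YES, a change of 4.45 (SE 0.21, adjusted p = 1.0e-11). SPNCRNA.1673 and SPNCRNA.1286 changed by 4.56 (SE 0.25, adjusted p = 1.0e-10) and 4.61 (SE 0.32, adjusted p = 1.7e-09). In these 4 RNAs the heat libraries lay far above the other 4 groups. Among falls, SPNCRNA.772 changed by -3.41 (SE 0.52, adjusted p = 6.9e-05).

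After H2O2 the largest rise among the medium-dependent clusters whose H2O2 and YES libraries did not overlap was that of the dehydrogenase gene osr1 (III:1645897-1645958). It had 418, 256 and 669 CPM after H2O2 and 3.82, 4.31 and 2.8 CPM in YES, and it changed by 6.93 (SE 0.36, adjusted p = 1.8e-09) on the log2 scale. The next largest rises included SPAC977.13c and mel1, which both lie within 100 kb of a chromosome end. SPAC977.13c (I:59062-59251) had 9.01, 8.84 and 5.96 CPM after H2O2 and 0.413, 0.176 and 0.37 CPM in YES, and its log2 change was 4.56 (SE 0.32, adjusted p = 6.5e-09). SPAPB1A11.03 (I:2984511-2984641), annotated as a cytochrome-dependent lactate dehydrogenase, had 17.6, 19.6 and 19 CPM after H2O2 and 1.14, 1.06 and 1.22 CPM in YES, a change of 4.0 (SE 0.21, adjusted p = 1.7e-10). For mel1 the change was 3.62 (SE 0.27, adjusted p = 2.1e-08). SPBP23A10.11c (II:2021952-2022205) fell, with 0.416, 1.15 and 0.931 CPM after H2O2, 6.92, 5.1 and 7.41 CPM in YES and a change of -2.94 (SE 0.28, adjusted p = 4.2e-07).

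Heat and H2O2 were compared directly. The levels come from no library of the rule, but the EMM and YES libraries shared in the estimate of the spread. Of the 421 clusters, 57 were higher after heat than after H2O2, where 14% of all clusters were, and 84 were lower, where 11.3% of all were. As shares of the 421 these were 13.5% and 19.95%, the first near that of all clusters and the second above it. With only the heat and H2O2 libraries in the fit the counts were 54 higher and 85 lower, and with library totals alone they were 47 higher and 111 lower. Among EMM-higher clusters 11 were higher and 23 lower, with 15 lower without H2O2 library 2 or without heat library 3. Among YES-higher clusters 46 were higher and 61 lower.

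Genes lower after heat than after H2O2 included the iron genes str3 and frp1, the ammonium transporter amt1 and the enzyme genes osr1 and isp7. The osr1 cluster had 1.55, 1.16 and 1.46 CPM after heat and 418, 256 and 669 CPM after H2O2, a log2 change of -8.13 (SE 0.39, adjusted p = 2.7e-10). The str3 cluster had 3.44, 3.84 and 2.63 CPM after heat and 27.2, 27.7 and 22.7 CPM after H2O2, a change of -2.77 (SE 0.25, adjusted p = 6.1e-08), and frp1 changed by -2.32 (SE 0.28, adjusted p = 3.6e-06). On the iron list 10 of 12 main clusters were lower after heat and 0 were higher. For amt1 the values were 14.5, 12.7 and 14 CPM after heat and 78.4, 89.3 and 81.8 CPM after H2O2, a change of -2.39 (SE 0.18, adjusted p = 6.3e-09), and isp7 changed by -3.75 (SE 0.46, adjusted p = 1.8e-05). In each of these genes the heat libraries lay below all H2O2 libraries. SPNCRNA.1289 went the other way, with a change of 4.98 (SE 0.23, adjusted p = 1.7e-11).

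**Figure D5:**
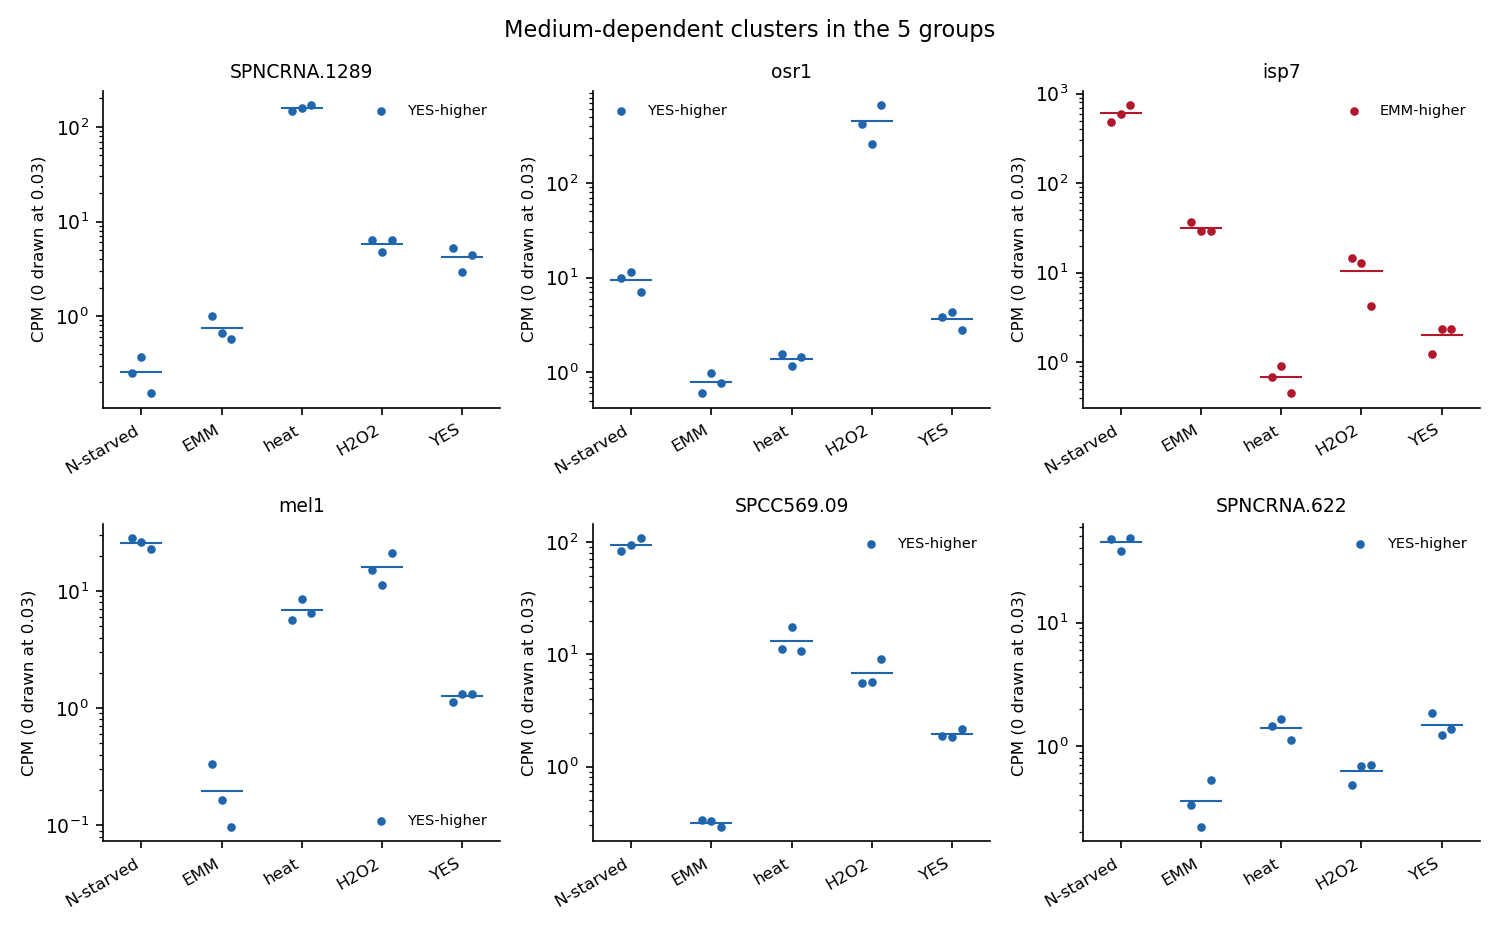
CPM of 6 medium-dependent clusters by group; each point is a library, lines are means of 3 libraries, axes are logarithmic with 0 drawn at 0.03, and red marks EMM-higher and blue YES-higher clusters. SPNCRNA.1289 was highest after heat, osr1 after H2O2, and isp7, mel1, SPCC569.09 and SPNCRNA.622 in nitrogen starvation.

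The 4-fold limit cuts through a continuous range. Just inside it, SPCC757.11c, pho1 and SPNCRNA.248 were 4.002-, 4.05- and 4.06-fold higher in EMM, and SPNCRNA.1334, SPNCRNA.01 and SPAC4F10.17 were 4.01-, 4.01- and 4.05-fold higher in YES. Just outside it, SPCC737.04, SPBPB7E8.01 and a further cluster of SPAC11D3.15 were 3.99-, 3.91- and 3.90-fold higher in EMM, and SPNCRNA.810, SPNCRNA.4578 and SPNCRNA.86 were 3.996-, 3.96- and 3.96-fold higher in YES.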

How the data were processed

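Tags were counted in 15 CAGE libraries, 3 in each of 5 groups taken from the labels. The authors deposited raw counts per start-site cluster and gene, which are whole numbers with different totals in each library. CASAVA 1.6, Bowtie 0.12.7 and build ASM294v2 are named, per the submitters' processing notes, and the clustering and counting steps are not given in the sources used here. The authors' deposited log2 tables were not used. The authors' deposited CPM column of the cluster list gives a mean over libraries and was not tested. CPM values here were computed from the deposited counts by library totals. Clusters were assigned to the gene whose deposited counts equal the sum of theirs in every library, which placed 11350 of 13003 clusters.

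Changes were tested by the quasi-likelihood method of edgeR 4.0.16 under R 4.3.3 (robust dispersion, TMM scaling, filterByExpr, which removed 0 clusters, and Benjamini-Hochberg adjustment over 13003 clusters at 0.05), with all 15 libraries in one fit that was checked on simulated data. Log2 changes therefore include TMM scaling, while CPM values do not. Each p-value came from this fit. Under library totals alone the median of all clusters moved to 0.58 in starvation against EMM and 0.49 against the mean of heat and H2O2, and to -0.20 for heat against YES and -0.22 for heat against H2O2. DESeq2 1.42.0, other scalings, filters, fits and left-out libraries were alternatives. The clusters and gene lists were chosen with earlier results of these data known. Named clusters were those with the largest ratios or changes, those in listed genes or in runs, the strongest secondary clusters and those beside the limit; SPAC27D7.11c and osh6 fall under the runs. Replicates of a group differed by 11.6 to 89.5 times the sampling noise (chi-square per degree of freedom), so none was counted as a repeat.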

Additional observations from a re-analysis of the deposited data

Results flagged for a closer look

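In 8 medium-dependent clusters heat and H2O2 moved the level in opposite directions from YES, each past the threshold, and the direct test of heat against H2O2 also passed (edgeR, adjusted p at most 4.1e-05). The log2 difference, heat minus H2O2, was -8.13 for osr1, with means of 1.39 CPM after heat, 448 CPM after H2O2 and 3.64 CPM in YES. It was -3.13 for SPAC1039.02, annotated as a phosphoprotein phosphatase, with 18.4 CPM after heat, 185 CPM after H2O2 and 54.0 CPM in YES. It was -2.39 for amt1, with 13.8, 83.1 and 44.5 CPM in the same order of groups. The iron gene frp1 differed by -2.32 and the cluster back to back with it (II:162567-162832) by -1.54. SPNCRNA.784 (I:1956830-1957027) differed by -2.71 and a cluster in no gene at I:4240159-4240350, chosen after its values were seen, by -1.29. The only one that was higher after heat was mug115, at 1.52, with 78.8 CPM after heat, 31.9 CPM after H2O2 and 46.3 CPM in YES.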

How the results depend on the processing

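The number of medium-dependent clusters was 636 at a 3-fold limit, 206 at an 8-fold limit and 168 with a floor of 5 CPM, and 425 to 444 when 1 EMM or YES library was left out, of which 389 to 401 were among the 421. Leaving out each library in turn gave 134 to 146 clusters higher and 131 to 150 lower in nitrogen starvation against EMM, 151 to 156 and 219 to 227 against the mean of heat and H2O2, 61 to 68 and 72 to 95 for heat against YES, 40 to 58 and 18 to 30 for H2O2 against YES, and 50 to 58 and 62 to 92 for heat against H2O2. Under the alternatives run, no total count of calls moved by more than 1.5 times and none of 53 named changes reversed. Of the 53, 51 were called under all 22 alternatives, the exceptions being nmt1 in starvation against EMM without EMM library 1 and pho1 in starvation against heat and H2O2 with library totals alone. Counting only changes of at least 1 in log2, the 16 YES-higher clusters higher in starvation than in heat and H2O2 became 10.

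With the replicate number as a block, 141 were higher and 145 lower in starvation against EMM. Deviations of same-numbered libraries correlated at -0.12 to 0.18, so the numbers were not taken to pair the cultures. Depth limits the weakest clusters: in 74 of 421, every library of the lower medium held 3 counts or fewer, so the size of their ratio is uncertain.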
